A study of Mus musculus with 39 samples.

Results

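The mitochondrial respiratory chain subunits encoded in the nucleus were followed through a series of AE9a leukaemias in mice. Genes were taken by symbol alone: Ndufa, Ndufb, Ndufc, Ndufs or Ndufv followed by a number, Sdha to Sdhd, and symbols that start with Uqcr, Cox4 to Cox8 or Atp5, without assembly factors (Ndufaf) and numbered pseudogenes. This gave 78 of the 22180 genes measured: 32 of complex I, 4 of complex II, 7 of complex III, 17 of complex IV and 18 of complex V. The rule itself uses no expression value, but it was set with earlier results of these data known. The literal rule also kept Atp5c1-ps, a pseudogene without a number, and counts Ndufa4 with complex I by its name, although its protein is now known to sit in complex IV. For 9 of the genes more than 1 probe set was present and the one with the highest mean was used. Cox6c, Ndufb2, Ndufb4, Ndufs6 and Uqcr10 were matched on this array only by probe sets that also carry other symbols, so these 5 are not analysed here.

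The series used Affymetrix mouse gene arrays on bone marrow RNA, with 1 array per mouse and 13 groups of 3 mice. AE9a is a shortened form of the AML1-ETO fusion protein that by itself can cause leukaemia in mice. The arms were AE9a alone, AE9a+miR-126 (the fusion with added miR-126) and, from cells that lack miR-126, miR-126KO+AE9a, each at passage 1 (P1), P2, P3 and P4 of serial transplantation. The normal controls were 3 recipients at the first passage, and all arrays were made from transplanted donor cells sorted as CD45.1+ from whole marrow when the mice had reached the end stage. Strain, age, the promoter that drives AE9a and the donor behind each recipient are not stated in the labels. The p-values below therefore measure the spread between recipients, some of which may share a donor. This spread is pooled over all 13 groups, so groups whose arrays differ widely among themselves also enter the tests of other groups. In sorted bulk cells, fewer cells of a type and less RNA per cell cannot be told apart. The list of general blood cell markers (5 genes, with the CD45 gene Ptprc) averaged between 7.64 and 10.10 log2 units on every array, and a list of 8 stroma and endothelium genes between 5.52 and 6.27.

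The respiratory chain passes electrons from NADH (complex I, the Nduf genes) or succinate (complex II, the Sdh genes) through ubiquinone to complex III (Uqcr) and from there through cytochrome c to oxygen at complex IV (Cox). Complexes I, III and IV pump protons across the inner mitochondrial membrane, and complex V (Atp5), the ATP synthase, uses the gradient to make ATP. Leukaemic stem cells of acute myeloid leukaemia are known for their reliance on this pathway. Several complex IV subunits exist as paired isoforms, a ubiquitous one and one best known from muscle or testis. Nuclear respiratory factor 1 (NRF1) is a textbook regulator of subunit genes, and its site is a palindrome with GCGC at either end.

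Promoter sequences are shown for 3 genes whose levels differed from normal control in AE9a P1: Sdha and Ndufa8, which were lower, and Cox7a1, which was higher. The mature miR-126 is shown because it is what was added or removed. Promoters come from RefSeq (GRCm38.p6), where 64 of the 78 genes had an entry running from 250 bases before to 50 after the gene start. A search on both strands for the relaxed NRF1 motif (GCGC, then any 2 bases, then GCGC) found it for 16 of these 64 genes (25.0%), against 7.0% of all 27025 genes with a promoter entry. Where a gene had several entries, a match in any of them counted. The strict NRF1 motif, with AT as the middle bases and so a special case of the relaxed one, was in 5 (7.81%, against 1.07% of all). The ETS core ACCGGAAG was in 7 (10.9%, against 2.6%), the YY1 motif AAGATGGCG in 6 (9.38%, against 1.64%) and CCAAT in 26 (40.6%, against 41.1%). All 12 subunit genes lower in AE9a P1 than in normal control, described below, had a promoter entry, and 2 of them, Sdha and Ndufa8, held the relaxed NRF1 motif. YY1 motifs were in 2 of the 12 (Ndufa9 and Ndufs7), CCAAT in 4 (Sdha, Ndufb3, Uqcrh and Cox6b2) and the ETS core in 0. These matches describe letters in a window. The 150 bases printed for each promoter read 5′ to 3′ on the gene's strand: Sdha at chr13:74350241-74350390 (minus strand) with 3 relaxed NRF1 motifs in capitals, Ndufa8 at chr2:36049339-36049488 (minus strand) with 1 such match, and Cox7a1, which was higher in leukaemia, at chr7:30184021-30184170 (plus strand) with 2 CCAAT boxes read as ATTGG. The mature miR-126 strand mmu-miR-126a-3p comes from chr2:26591402-26591423 (plus strand), with its seed (bases 2 to 8) in capitals.
Sdha promoter: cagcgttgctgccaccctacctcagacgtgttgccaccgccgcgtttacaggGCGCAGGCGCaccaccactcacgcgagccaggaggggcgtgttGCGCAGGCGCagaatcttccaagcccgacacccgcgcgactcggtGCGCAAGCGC
Ndufa8 promoter: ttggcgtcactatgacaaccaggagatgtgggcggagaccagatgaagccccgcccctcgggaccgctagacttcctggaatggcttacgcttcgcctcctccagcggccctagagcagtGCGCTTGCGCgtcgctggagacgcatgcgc
Cox7a1 promoter: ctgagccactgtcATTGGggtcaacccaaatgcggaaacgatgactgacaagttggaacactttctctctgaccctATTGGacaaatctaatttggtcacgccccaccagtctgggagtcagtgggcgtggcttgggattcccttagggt
mmu-miR-126a-3p: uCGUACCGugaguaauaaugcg

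Arrays differed in how far their log2 values spread, and this touches the subunit genes because 40 of the 78 belong to the 4436 brightest genes. The SD over probe sets reached down to 1.43 with added miR-126, to 1.78 in miR-126KO+AE9a, to 1.86 in AE9a and to 1.87 in normal control. An SD under 1.8 was found on 8 arrays: AE9a+miR-126 P2 replicates 1 and 2, P3 replicates 1, 2 and 3, P4 replicates 1 and 2, and miR-126KO+AE9a P2 replicate 3. On these 8 the median level of the subunit genes was 6.37 to 7.83, against 7.10 to 8.07 on the other 31. The 4436 brightest genes moved in the same way, with medians of 7.05 to 8.27 on the 8 and 8.50 to 8.90 on the others. The main results that rest on these arrays are given with and without them. Leaving them out removes P3 of AE9a+miR-126 and keeps 1 array each of its P2 and P4 (replicate 3), and tests on these lone arrays assume that they vary like the other groups.

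**Figure D1:**
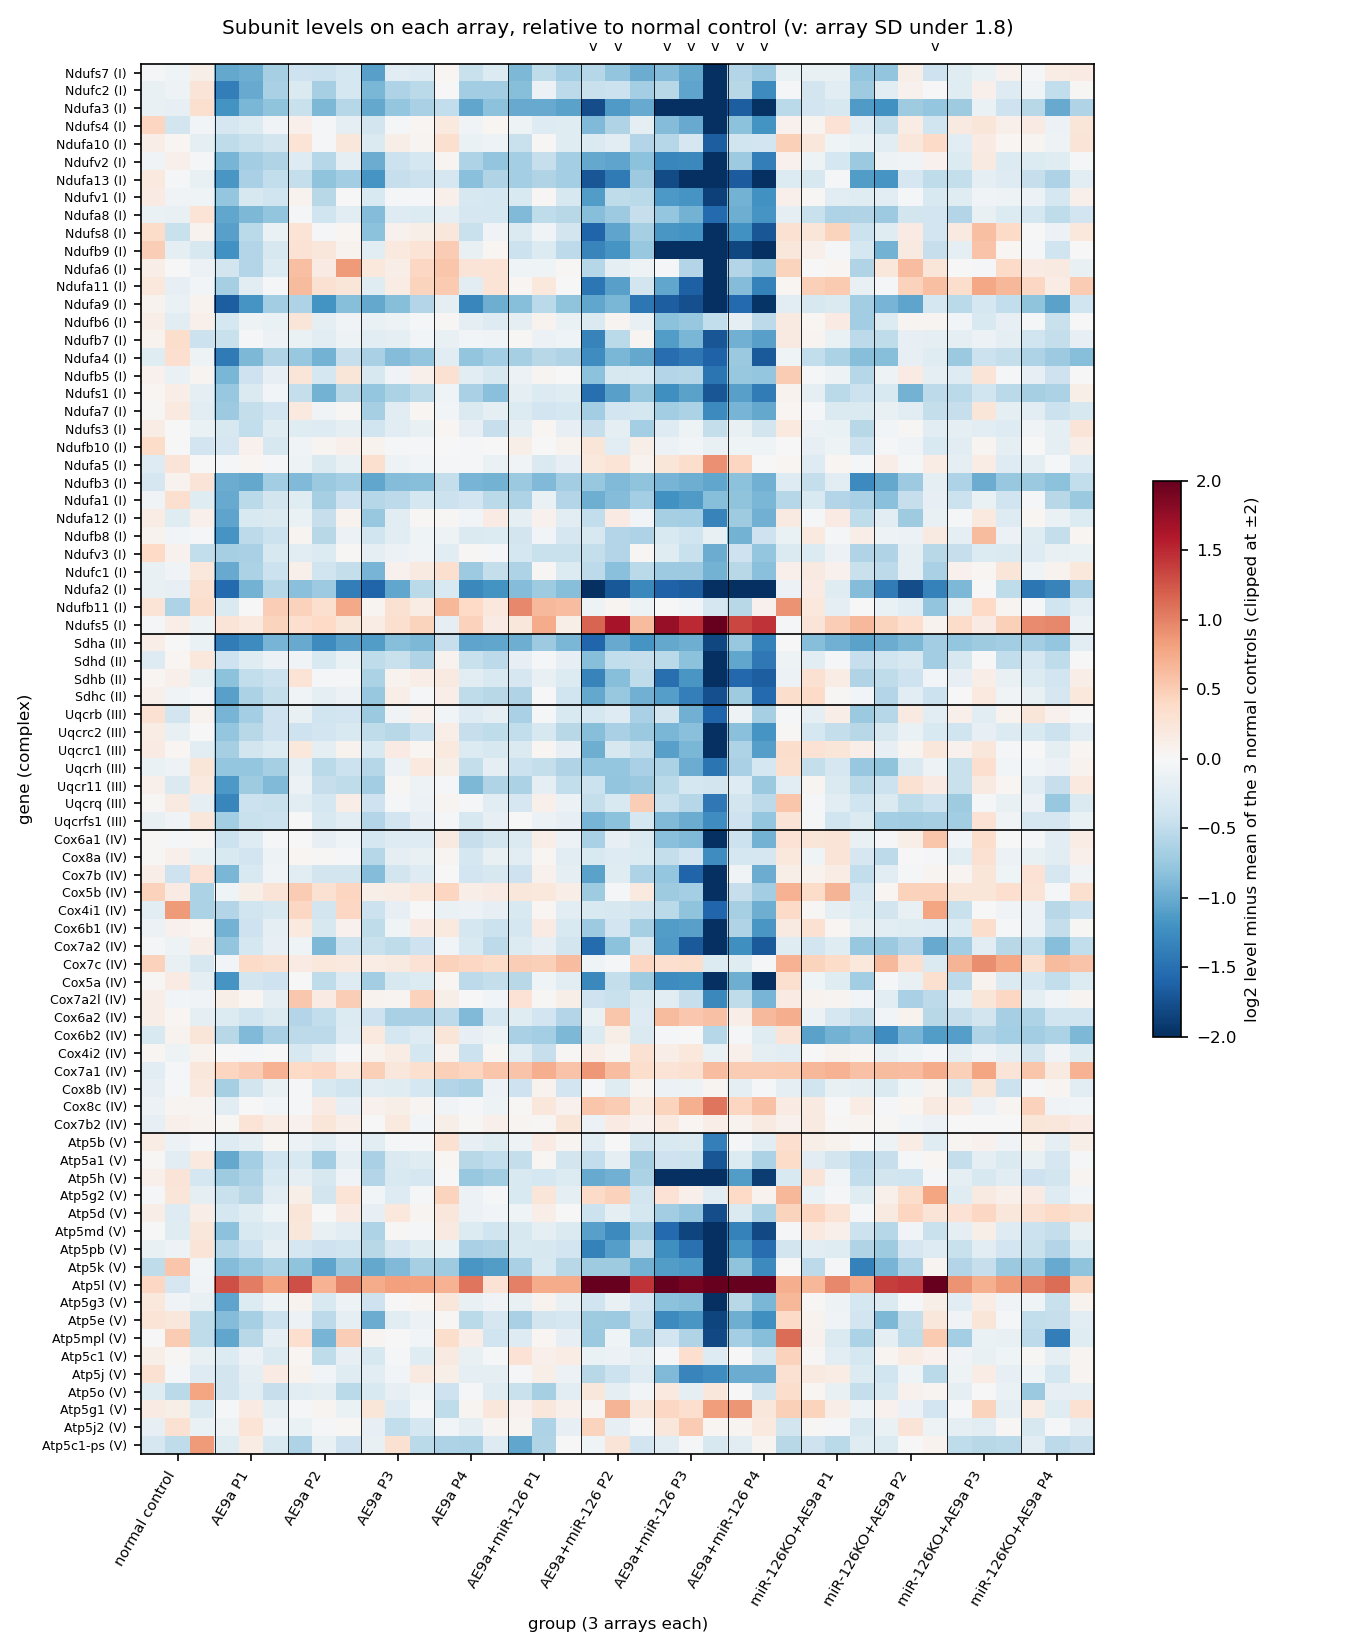
Each column is 1 array (13 groups of 3) and each line 1 of the 78 subunit genes, ordered by complex and level; colour is the log2 level minus the mean of the 3 normal controls, clipped at 2 either way, and v marks the 8 arrays with an SD under 1.8. Sdha and Ndufb3 are blue and Cox7a1 and Atp5l are red in nearly every leukaemia column, while the darkest columns are the marked ones of AE9a+miR-126 P3.

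The first question was how the subunits stood in AE9a leukaemia cells against normal control cells at the first passage. Most were lower: 70 of the 78 differences were below 0, with a median log2 difference of -0.45, against 0.03 over all genes and 0.01 over the 4436 brightest genes. In limma, 12 genes were lower and 2 higher at an adjusted p under 0.05 (Benjamini-Hochberg over all genes), so 17.9% of the subunit genes passed. Over all genes 8.87% passed, 5.64% lower and 3.22% higher. Every AE9a array lay below every normal control array for 42 of the 78 genes, a pattern seen in 15.5% of all genes, and above for 3 (16.3% of all genes).

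Complex I, the entry point for NADH, held most of the calls. Of its 32 genes 30 had a difference below 0, the median was -0.55, and 8 were lower and 0 higher. Ndufa9, an accessory subunit at the joint of the matrix and membrane arms, read 7.14, 7.62 and 8.09 in AE9a P1 and 8.86, 8.66 and 8.86 in normal control. The groups did not overlap, and the level in AE9a was 2.26-fold lower (log2 difference -1.18 ± 0.31 SE, n = 3 and 3, limma adjusted p = 0.0159). Ndufa3, a small accessory subunit of the membrane arm, read 9.52, 9.81 and 9.91 against 10.56, 10.55 and 11.03 (-0.97 ± 0.31, adjusted p = 0.0424). Ndufa4 read 6.74, 7.25 and 7.56 against 7.91, 8.49 and 8.06 (-0.97 ± 0.26, adjusted p = 0.0147).

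Ndufa8, a subunit on the intermembrane side, stood at 7.73, 7.87 and 7.98 in AE9a P1 and at 8.64, 8.62 and 9.04 in normal control (-0.91 ± 0.21, adjusted p = 0.00575). A second, dimmer probe set of Ndufa8 gave a difference of 0.23, so the probe sets of this gene disagree. Ndufb3, an accessory subunit of the membrane arm, read 6.32, 6.28 and 6.61 against 6.97, 7.38 and 7.57, again without overlap (-0.90 ± 0.22, adjusted p = 0.0072). Ndufb8 was lower by the same test (-0.71 ± 0.21, adjusted p = 0.031). Ndufs7, a core subunit that carries an iron-sulfur cluster next to ubiquinone, and Ndufa1 were also lower, at -0.89 ± 0.27 and -0.64 ± 0.20; these 2 are named after their values were seen. The core subunits of the matrix arm named by the fixed rule did not pass: the difference was -0.37 for Ndufs1 (adjusted p = 0.439) and -0.50 for Ndufv1 (adjusted p = 0.209).

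In complex II, which is also the succinate dehydrogenase of the citric acid cycle, the flavoprotein subunit Sdha had the largest fall of all the subunit genes that passed in AE9a P1. Its levels were 8.40, 8.55 and 8.88 in AE9a P1 against 9.93, 9.81 and 9.67 in normal control. Every AE9a value lay far below the lowest control value, and the level was 2.29-fold lower (-1.19 ± 0.24, limma adjusted p = 0.00151). Its partners had differences below 0 that did not pass: -0.58 for the iron-sulfur subunit Sdhb, -0.73 for the membrane anchor Sdhc and -0.26 for the membrane anchor Sdhd (adjusted p = 0.239, 0.115 and 0.611).

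All 7 complex III genes had a difference below 0 (median -0.67), and 2 passed. Uqcr11, a very small subunit, read 6.31, 6.76 and 6.58 in AE9a P1 and 7.56, 7.17 and 7.66 in normal control (-0.92 ± 0.24, adjusted p = 0.0132 by limma). The hinge protein Uqcrh, named after its value was seen, was the other (-0.74 ± 0.23, adjusted p = 0.0419). Neither the core protein Uqcrc1 (-0.44, adjusted p = 0.388) nor the Rieske iron-sulfur protein Uqcrfs1 (-0.52, adjusted p = 0.117) passed.

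Complex IV was mixed, with 1 gene higher, 1 lower and a median of -0.26. Both calls fell on isoforms best known from other tissues. Cox7a1, the heart and skeletal muscle isoform, read 5.01, 5.07 and 5.27 in AE9a P1 against 4.38, 4.56 and 4.82 in normal control (0.53 ± 0.15, adjusted p = 0.0214 by limma), while the ubiquitous Cox7a2 had a difference of -0.44 (adjusted p = 0.424). The Cox7a1 signal is low: each value lay below the median over probe sets of its array, which was 5.38 to 5.53 in these groups. Cox6b2, the testis isoform, read 5.84, 5.51 and 5.75 against 6.09, 6.46 and 6.63 (-0.70 ± 0.18, adjusted p = 0.015), and its ubiquitous partner Cox6b1 differed by -0.52 (adjusted p = 0.346). The paired Cox4i1 and Cox4i2 differed by -0.43 and -0.01, Cox6a1 and Cox6a2 by -0.25 and -0.32, Cox8a, Cox8b and Cox8c by -0.26, -0.39 and -0.09, and Cox5a and Cox5b by -0.65 and 0.10. None of these 9 passed.

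Complex V had a median of -0.38 and 1 call, which went the other way. Atp5l, subunit g of the membrane part of ATP synthase, read 8.14, 7.88 and 7.65 in AE9a P1 and 7.27, 6.50 and 6.77 in normal control (1.04 ± 0.34, adjusted p = 0.0493 by limma). The call was lost after cyclic loess (1.15, adjusted p = 0.115), after quantile normalization (1.11, adjusted p = 0.0986), with the trended prior (adjusted p = 0.0543) and without any 1 of the 6 arrays apart from normal control replicate 1. The catalytic subunits Atp5a1 and Atp5b differed by -0.70 (adjusted p = 0.0946) and -0.14 (adjusted p = 0.704).

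Sdha was the call least dependent on single arrays. It passed with each of the 6 arrays left out in turn, with differences from -1.33 to -1.09. The count of 14 changed genes fell to 5, 6 and 11 without AE9a P1 replicates 1, 2 and 3, and to 6, 5 and 7 without normal control replicates 1, 2 and 3, and Ndufa3 passed in none of the 6. Of these 6 fits Ndufa9 and Cox7a1 failed in 4, Uqcr11 and Cox6b2 in 3 and Ndufa4 in 2. After quantile normalization Cox7a1 (0.42, adjusted p = 0.0613) and Uqcr11 (-0.73, adjusted p = 0.0649) no longer passed. Shares of all genes are not given for these fits or for the settings that follow. Leaving out the low-spread arrays does not change the differences in this comparison, only the estimate of the spread. The median difference of the 78 genes stayed between -0.56 and -0.34 over these 6 fits. With the array spread as a covariate it was -0.36 with 17 lower and 2 higher, and without the 8 arrays of low spread, none of which belongs to these groups, 28 were lower and 2 higher.

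**Figure D2:**
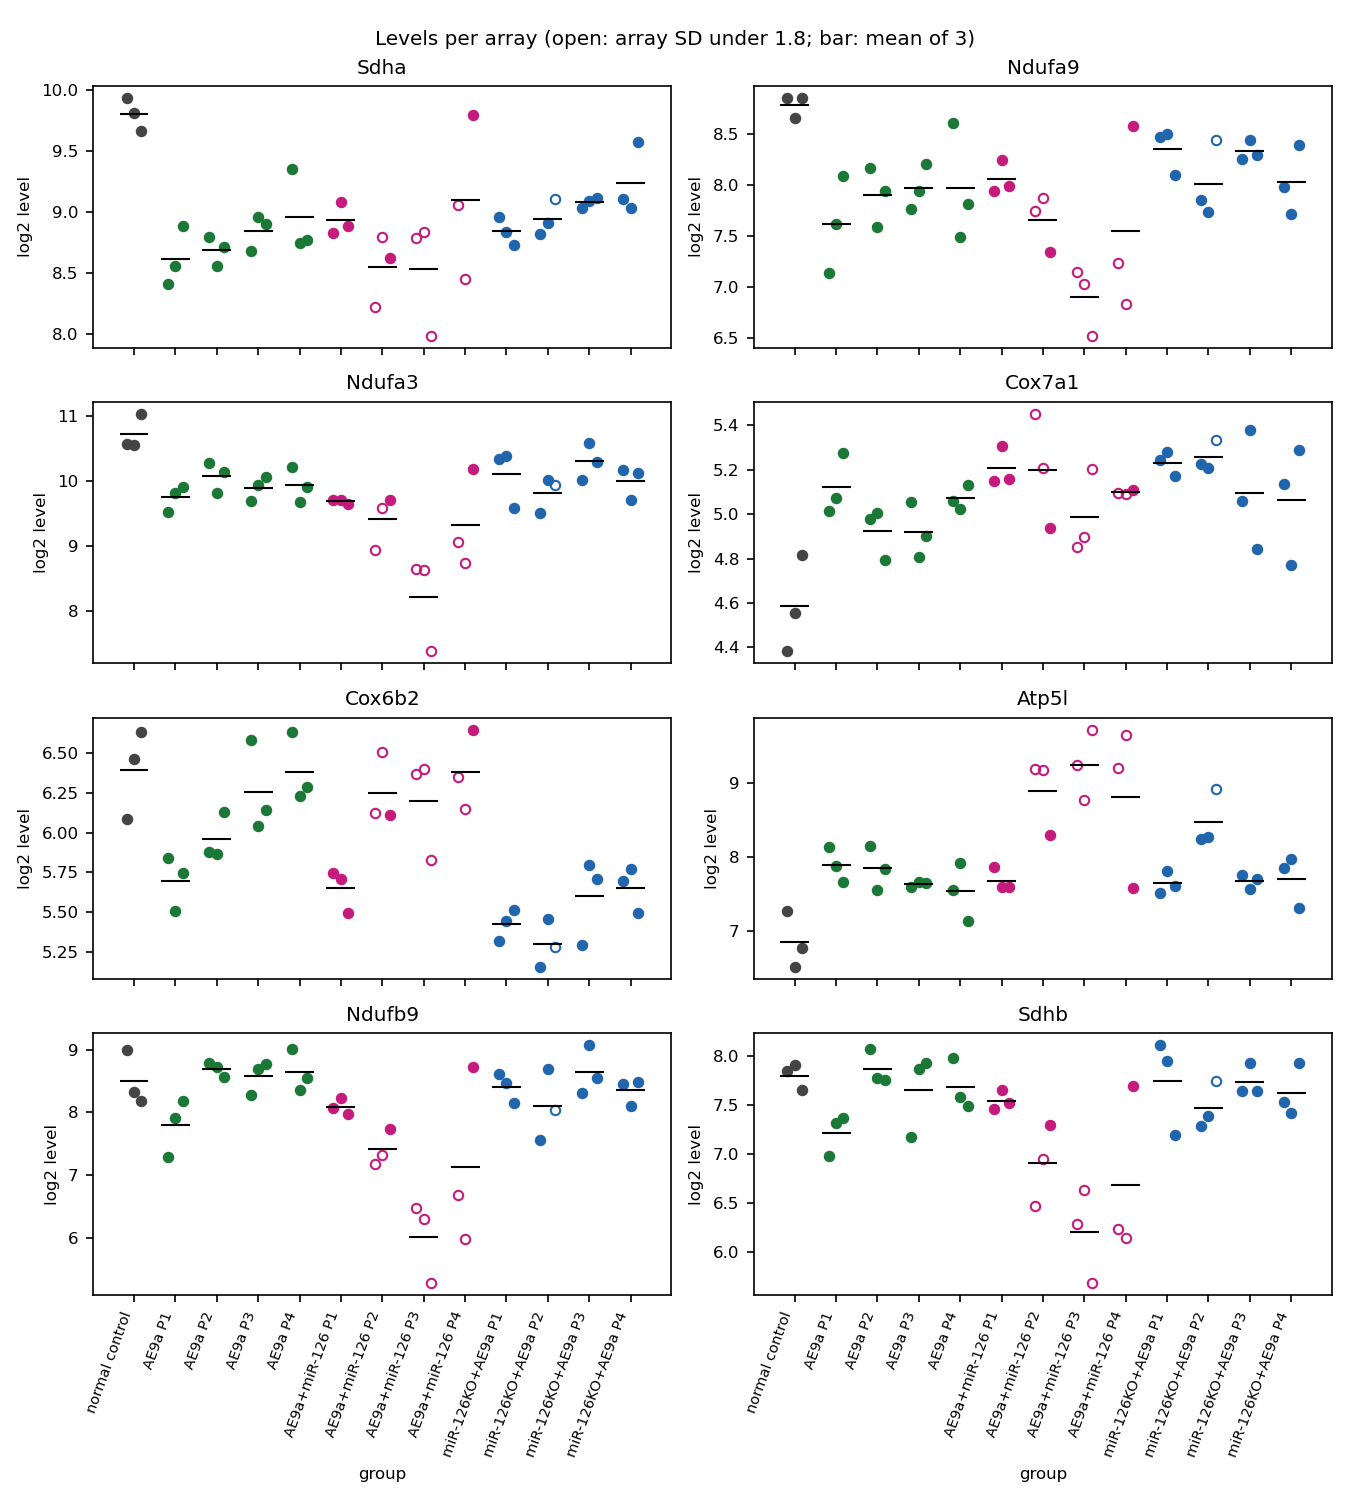
Log2 level of 8 subunit genes on each of the 39 arrays, 3 arrays per group, with a bar for the group mean and open points for arrays with an SD under 1.8. Sdha in AE9a P1 lies between 8.40 and 8.88, under the normal controls at 9.67 to 9.93, and the open points of AE9a+miR-126 are the low values of Ndufb9 and Sdhb and the high values of Atp5l.

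AE9a+miR-126 and miR-126KO+AE9a at P1 were compared with the same 3 normal control arrays, so the comparisons share their controls and are given side by side. With added miR-126, 5 subunit genes were lower and 1 higher in limma (9.73% of all genes passed), and the median difference was -0.23. In the knockout arm 3 were lower and 1 higher (10.8% of all genes passed), with a median of -0.17. Of the subunit genes 7.69% thus passed where miR-126 was added and 5.13% where it was lost, against 17.9% in AE9a. In both miR-126 arms the share in this fit was below the share of all genes. More subunit genes passed in both arms without the low-spread arrays, with the array spread as a covariate and after cyclic loess. Those counts are given at the end, without the matching shares of all genes. By complex, the medians of complexes I to V were -0.25, -0.29, -0.34, -0.16 and -0.18 with added miR-126 and -0.22, -0.14, -0.26, 0.02 and -0.13 in the knockout arm.

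Sdha passed in all 3 arms. With added miR-126 it read 8.82, 9.08 and 8.88 (-0.87 ± 0.24, limma adjusted p = 0.0154), and in the knockout arm 8.95, 8.84 and 8.73 (-0.96 ± 0.24, adjusted p = 0.00617). These 6 arrays all lie below the lowest normal control at 9.67. Over all 36 leukaemia arrays Sdha ran from 7.98 to 9.80, and AE9a+miR-126 P4 replicate 3, at 9.80, was the only one that reached the range of the normal controls.

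Ndufb3 also passed in each arm. Its levels were 6.57, 6.42 and 6.62 with added miR-126 (-0.77 ± 0.22, limma adjusted p = 0.0187) and 6.83, 7.08 and 6.04 in the knockout arm (-0.66 ± 0.22, adjusted p = 0.0451). The knockout arrays overlapped the controls, and without the low replicate 3 the difference was -0.35. Ndufa3 read 9.70, 9.71 and 9.65 with added miR-126, under all normal controls (-1.03 ± 0.31, adjusted p = 0.0276), and 10.33, 10.39 and 9.58 in the knockout arm, where it did not pass. Ndufa8 passed with added miR-126 (-0.64 ± 0.21, adjusted p = 0.0478).

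The isoforms Cox7a1 and Cox6b2 moved in opposite directions in every arm. Cox7a1 read 5.15, 5.31 and 5.16 with added miR-126 (0.62 ± 0.15, limma adjusted p = 0.00606) and 5.24, 5.28 and 5.17 in the knockout arm (0.65 ± 0.15, adjusted p = 0.00348), all above the highest control at 4.82. Cox6b2 read 5.75, 5.71 and 5.50 with added miR-126 (-0.74 ± 0.18, adjusted p = 0.00765) and 5.32, 5.44 and 5.51 in the knockout arm (-0.97 ± 0.18, adjusted p = 0.00047), all below the lowest control at 6.09. Atp5l, which passed in AE9a, had differences of 0.83 (adjusted p = 0.13) and 0.79 (adjusted p = 0.148) in these arms. In the knockout arm Sdha, Cox6b2 and Cox7a1 passed with each of the 6 arrays left out. With added miR-126 the count of 6 fell to 3, 3 and 2 without AE9a+miR-126 P1 replicates 1, 2 and 3, and to 3, 4 and 3 without normal control replicates 1, 2 and 3.

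**Figure D3:**
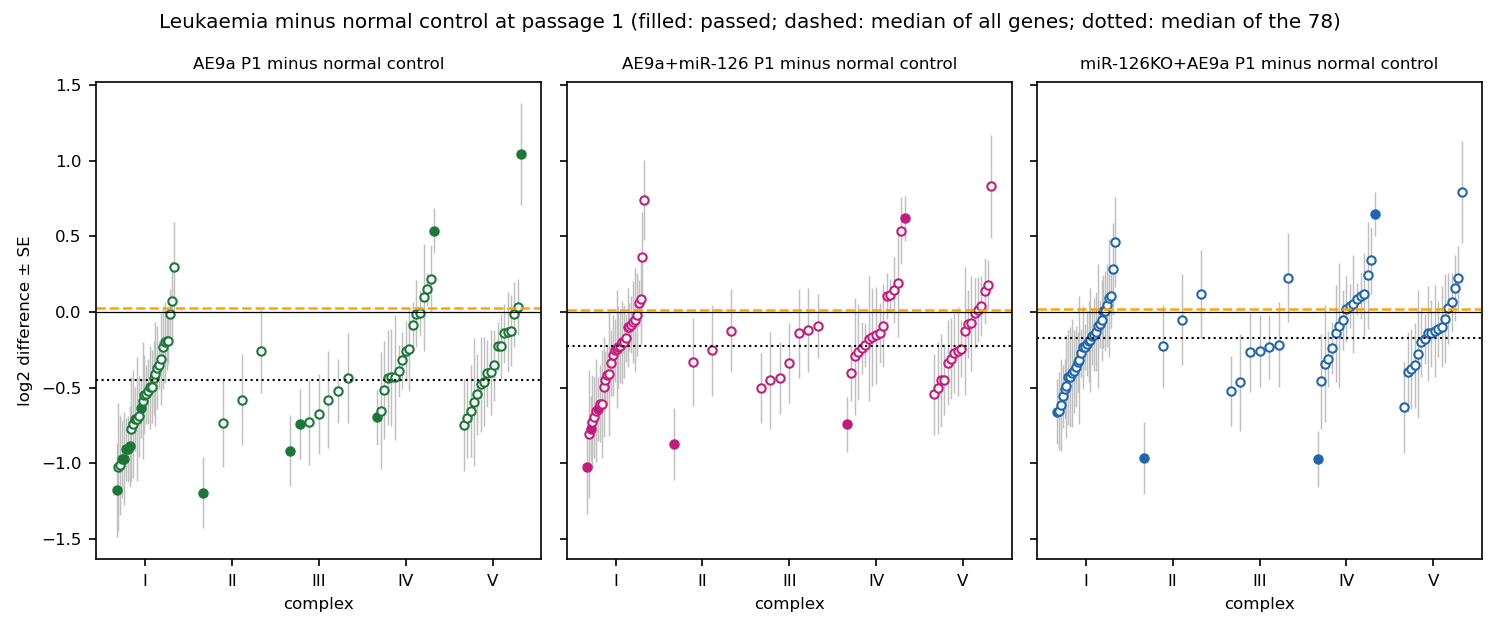
Log2 difference ± SE from normal control at P1 for each subunit gene, by complex, in the 3 arms, 1 panel each; filled points passed, the dashed line is the median of all genes and the dotted line the median of the 78. The dotted line lies at -0.45, -0.23 and -0.17, each time below the dashed line, which is within 0.03 of 0.

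Direct tests between arms at P1 found few differences in the subunit genes. For AE9a+miR-126 against AE9a, 0 passed in limma (0.0316% of all genes passed), 5 were higher and 0 lower before adjustment (p under 0.05), and 68 of 78 differences were above 0 with a median of 0.22. For miR-126KO+AE9a against AE9a, 1 passed, higher (2.09% of all genes passed), 68 differences were above 0 and the median was 0.26. That gene was Ndufb8, an accessory subunit of the membrane arm of complex I. It read 6.93, 6.72 and 6.87 in the knockout arm against 5.57, 6.22 and 6.31 in AE9a P1 (0.81 ± 0.21, adjusted p = 0.0344), and 6.82, 6.69 and 6.71 in normal control. Sdhc had a larger difference that did not pass (0.85, adjusted p = 0.144). The call was lost without any 1 of the 6 arrays apart from AE9a P1 replicate 3.

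Other genes of mitochondrial and central carbon metabolism were counted from lists taken from general knowledge. In AE9a P1 against normal control, 7 of 47 measured assembly factors of the complexes were lower and 1 higher (median -0.38), with Cox15, which makes the haem A of complex IV, at -0.97 and Bcs1l, which inserts the Rieske protein into complex III, at -0.91. Of 17 electron carrier genes 6 were lower (median -0.40), led by Etfb, a subunit of the electron transfer flavoprotein (-1.48 ± 0.34, limma adjusted p = 0.00504). Citric acid cycle genes gave 4 of 17 lower (median -0.30), among them the fumarase gene Fh1 at -1.46 and Idh2 at -1.38. For the mitochondrial ribosome 12 of 71 were lower (median -0.33). Glycolysis gave 5 of 17 lower and 1 higher (median -0.58): Pfkm and Tpi1 were at -1.41 and -1.23, and the glucose transporter Slc2a1 was higher at 1.03. Of 17 regulators of mitochondrial biogenesis only Myc passed (-1.40 ± 0.34). The corresponding medians, in the order assembly, carriers, citric acid cycle, ribosome, glycolysis and regulators, were -0.30, -0.23, -0.10, -0.11, -0.45 and -0.19 with added miR-126 and -0.14, -0.27, -0.18, -0.09, -0.66 and -0.18 in the knockout arm.

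Markers of other blood cells moved in the same comparison, and their part in the subunit differences was not tested. Of 10 measured erythroid genes 9 were lower in AE9a P1 than in normal control (median -2.24), and the list's mean level was 5.53 to 5.68 against 7.65 to 8.38. With added miR-126 9 were lower (median -2.41, level 5.27 to 5.46) and in the knockout arm 4 (median -1.03, level 6.29 to 7.20). In AE9a P1 the median was -2.38 for mast cell and basophil markers and -1.11 for B cell markers. Of 12 neutrophil markers 0 passed (median -0.10), with list levels of 11.43 to 11.56 in AE9a P1 and 11.68 to 11.90 in normal control. With added miR-126 0 of the 12 passed (median -0.93), and in the knockout arm 8 were lower (median -1.73). Lower markers in AE9a, AE9a+miR-126 and the knockout arm in turn numbered 4, 4 and 2 of 5 for mast cells and basophils, 4, 6 and 6 of 7 for B cells, 2, 4 and 6 of 8 for T and NK cells, 3, 3 and 3 of 4 for megakaryocytes and 2, 2 and 5 of 7 for stem and progenitor cells. Of 10 monocyte and macrophage markers 1, 1 and 3 were higher and 1, 0 and 0 lower.

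The effect of added miR-126 was taken as the mean of the 4 differences from AE9a, 1 per passage. On the deposited values 35 subunit genes were lower and 7 higher in limma, or 53.8% of the 78, against 55.1% of all genes. The median was -0.27, with -0.51 over the 4436 brightest genes, of which 67.3% were lower. The share that passed was thus near that of all genes. Complex I had 18 lower and 2 higher, complex II 3 lower, complex III 2 lower, complex IV 6 lower and 3 higher, and complex V 6 lower and 2 higher.

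The lower genes included Ndufb9, an accessory subunit of the membrane arm of complex I. At P1, P2, P3 and P4 of AE9a+miR-126 it read 8.07, 8.23 and 7.98, then 7.18, 7.32 and 7.74, then 6.48, 6.30 and 5.28, then 6.68, 5.98 and 8.72. In AE9a the values were 7.29, 7.91 and 8.18 at P1 and between 8.27 and 9.01 afterwards. The mean difference was -1.26 ± 0.21 (limma adjusted p = 1.66e-05). At P4 the array of ordinary spread, replicate 3, lay inside the AE9a range and both low-spread arrays lay far below it.

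Ndufa11, another membrane arm subunit, and Atp5md, a small membrane subunit of ATP synthase, behaved likewise on the arrays. Ndufa11 with added miR-126 read 8.08, 8.24 and 8.04 at P1 and 7.17, 6.69 and 8.08 at P4, against 8.56, 7.81 and 8.31 in AE9a P4 (mean difference -0.91 ± 0.15, limma adjusted p = 2.39e-05). A second, dimmer probe set of Ndufa11 gave 0.20. Atp5md read 9.64, 9.79 and 9.68 at P1, 8.41, 8.13 and 7.55 at P3 and 8.62, 8.17 and 9.94 at P4 (mean difference -0.84 ± 0.15). Sdhb read 7.46, 7.65 and 7.52 at P1, 6.28, 6.63 and 5.68 at P3 and 6.23, 6.14 and 7.68 at P4 (-0.77 ± 0.15, adjusted p = 0.000145). Sdhc was lower by 0.48 (adjusted p = 0.00741) and Sdhd by 0.37 (adjusted p = 0.0246), whereas Sdha differed by 0.00 on the deposited values (adjusted p = 0.985). With the array spread as a covariate Sdha was higher by 0.45 (limma adjusted p = 0.00512), and after cyclic loess by 0.48 (adjusted p = 1.3e-05). Without the low-spread arrays Sdha was at 0.37.

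Among core subunits Ndufv1 (-0.51, limma adjusted p = 0.00104), Ndufs1 (-0.32, adjusted p = 0.0457), Uqcrc1 (-0.53, adjusted p = 0.00373), Cox5a (-0.54, adjusted p = 0.0194) and Cox5b (-0.60, adjusted p = 0.00623) were lower. Uqcrfs1 (-0.23), Atp5a1 (0.02), Atp5b (-0.10) and Ndufa4 (-0.25) did not pass. The ubiquitous complex IV isoforms Cox6a1 (-0.33), Cox6b1 (-0.52) and Cox7a2 (-0.59) were lower, as was Cox7a2l (-0.48). Of the muscle or testis isoforms Cox6a2 was higher by 0.67, Cox8c by 0.44 and Cox8b by 0.21 (-0.00639 for Cox8b after cyclic loess), while Cox6b2 (0.05) and Cox7a1 (0.11) did not pass. Cox8c and Cox8b are dim, with means of 3.74 and 3.96 over the 39 arrays and every group mean under 5.

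The 5 largest of the 7 rises were Atp5l, Ndufs5, Cox6a2, Cox8c and Atp5g1. Atp5l read 7.86, 7.58 and 7.59 at P1 with added miR-126, 9.18, 9.17 and 8.30 at P2, 9.24, 8.77 and 9.72 at P3 and 9.20, 9.65 and 7.57 at P4, against 7.13 to 8.14 in AE9a (0.93 ± 0.17, limma adjusted p = 6.87e-05). The ordinary-spread replicate 3 of P4 again lay within the AE9a range. Ndufs5, a complex I subunit of the intermembrane side, was higher by 0.80 ± 0.15 (adjusted p = 8.18e-05). Cox8c, the testis isoform of subunit 8, was at 4.04, 4.31 and 4.67 in AE9a+miR-126 P3, above all AE9a arrays (mean difference 0.44 ± 0.08). Its signal is dim, with a mean of 3.74 over the 39 arrays, and a filter at log2 of 5 in at least 1 group drops it. Atp5g1, one of the genes for the proton-carrying c ring, was higher by 0.42 ± 0.11 (adjusted p = 0.0023). Without the low-spread arrays none of these 4 passed: Atp5l was at 0.095, Ndufs5 at 0.067, Cox8c at 0.21 and Atp5g1 at 0.33 (adjusted p = 0.884, 0.932, 0.276 and 0.278). With the SD of each array as a covariate Atp5l was at 0.30, Ndufs5 at 0.31 and Cox8c at 0.22, without passing, and Atp5g1 passed at 0.45.

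**Figure D4:**
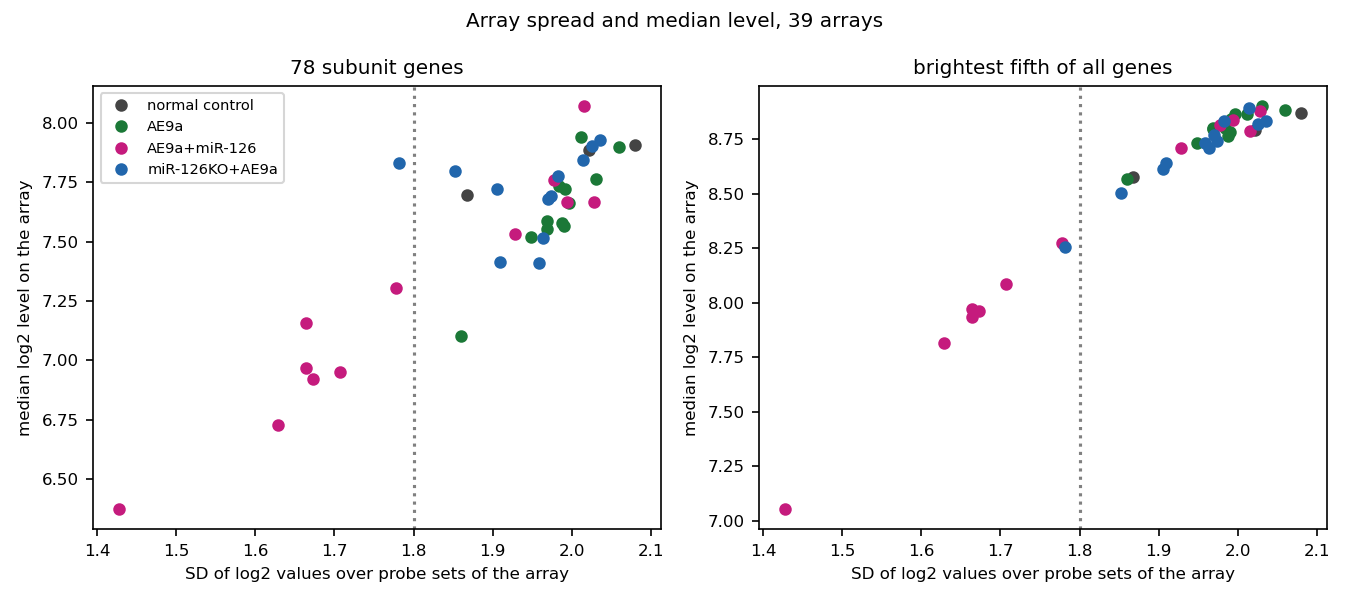
Median log2 level on each of the 39 arrays against the SD of the array's log2 values, for the 78 subunit genes (left) and the 4436 brightest genes (right); colours are the arms and the dotted line is an SD of 1.8. The 8 arrays left of the line have subunit medians of 6.37 to 7.83 and the other 31 of 7.10 to 8.07.

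The falls also depended on how the array spread was handled. With the SD of each array as a covariate 0 subunit genes were lower and 6 higher in limma, with a median of 0.10; Ndufb9 was at -0.44 (adjusted p = 0.117) and Sdhb at -0.17. Without the 8 arrays of low spread, which leaves passages 1, 2 and 4, the last 2 with 1 array of AE9a+miR-126 each, 0 were lower and 2 higher (median 0.10). After cyclic loess, which evens out the arrays along the intensity scale, 12 were lower and 18 higher (median -0.00184), and quantile normalization gave 12 lower and 15 higher. The matching shares of all genes are not given for these settings, so these counts cannot be set against genes in general. Called falls that changed sign in the first 2 settings included Sdhc, Sdhd, Ndufs1, Uqcrc1, Cox5a, Cox5b, Cox6a1, Cox6b1, Cox7a2 and Atp5e. The direction of the subunit genes as a group thus differs between settings, at a median of -0.27 on the deposited values and of 0.10, 0.10, -0.00184 and -0.06 in these settings.

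Cox6a2, the heart and muscle isoform of subunit 6a, passed as higher in every one of these settings. In AE9a it ran from 5.28 to 5.90 over all 12 arrays. With added miR-126 it read 5.93, 5.78 and 5.58 at P1, 6.04, 6.72 and 5.91 at P2, 6.80, 6.71 and 6.76 at P3 and 6.31, 6.82 and 6.90 at P4. All 9 arrays from P2 to P4 lay above every AE9a array, and P4 replicate 3, of ordinary spread, was the highest of them. The mean difference was 0.67 ± 0.09 (limma adjusted p = 1.98e-06), 0.78 with spread as a covariate (adjusted p = 5.95e-05), 0.48 without low-spread arrays (adjusted p = 0.00821), 0.63 after cyclic loess and 0.82 after quantile normalization. In normal control it read 6.31, 6.21 and 5.99. Uqcrq, a small complex III subunit, passed with the covariate (0.55, adjusted p = 0.00306) and without low-spread arrays (0.63, adjusted p = 0.0256) but not on the deposited values or after cyclic loess.

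**Figure D5:**
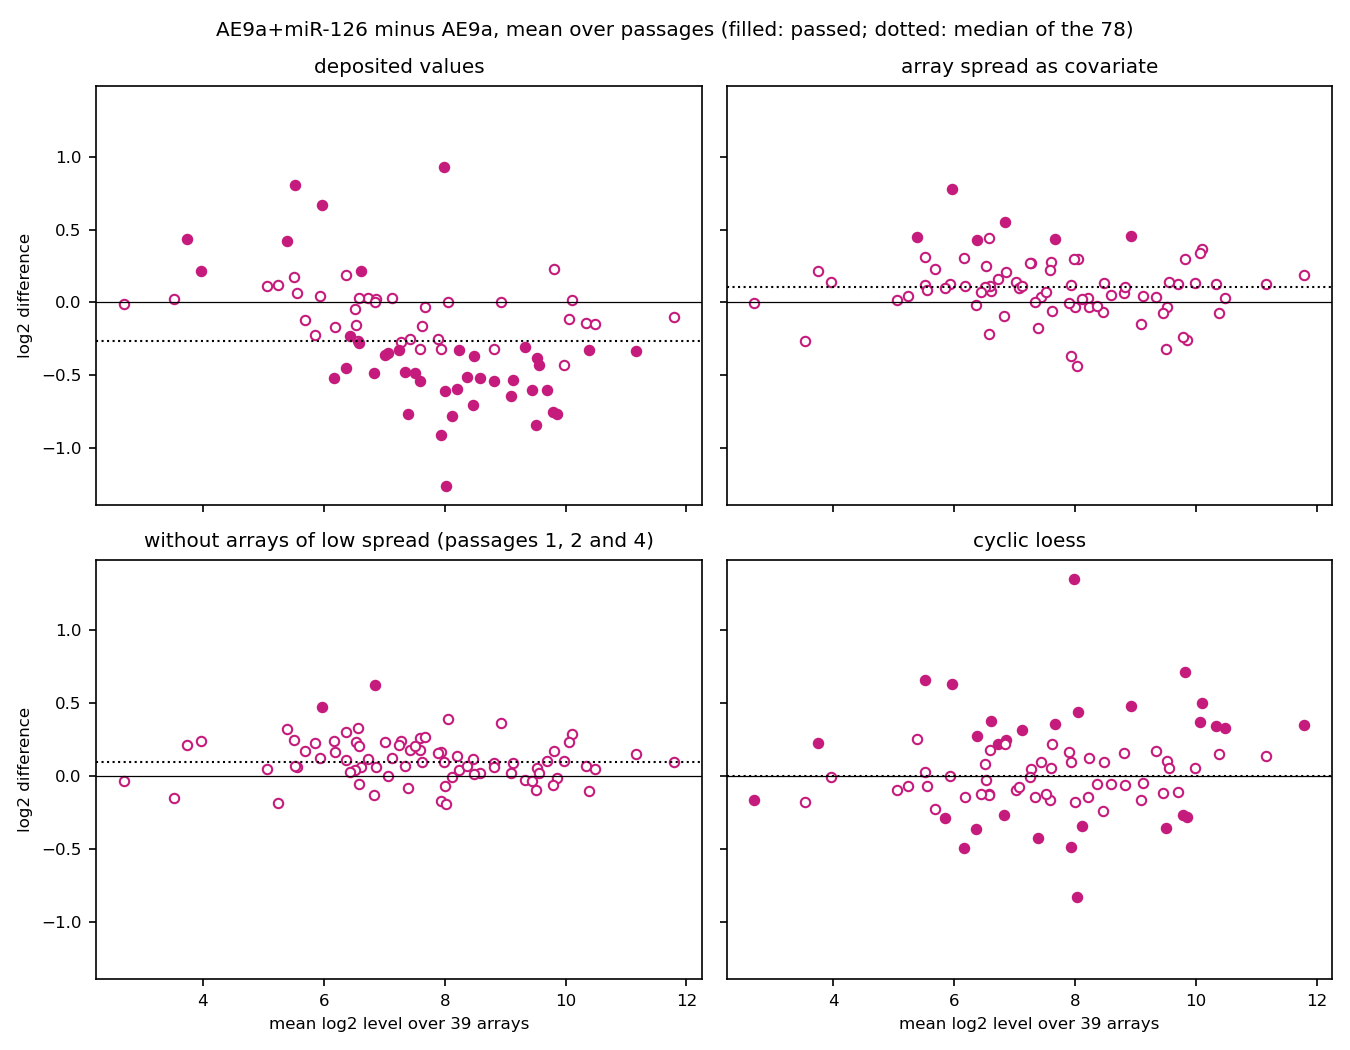
Log2 difference of AE9a+miR-126 from AE9a, averaged over passages, against the gene's mean log2 level over 39 arrays, for the 78 subunit genes under 4 settings; filled points passed and the dotted line is the median of the 78. On the deposited values bright genes lie low and dim ones high, and this slope is gone in the settings with the array spread as a covariate and without arrays of low spread, where the medians are 0.10.

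Passage by passage, added miR-126 gave 0 calls at P1, 1 higher and 6 lower at P2 (8.85% of all genes passed), 7 higher and 43 lower at P3 (52.2% of all genes) and 4 higher and 4 lower at P4 (24.7% of all genes). The medians were 0.22, -0.34, -0.71 and -0.26, and those of the 4436 brightest genes at P2 to P4 were -0.45, -1.10 and -0.55. At P3, where all 3 arrays have low spread, the largest fall was Ndufb9 at -2.56 (5.89-fold), followed by Atp5h, a stalk subunit of ATP synthase, (4.01-fold), Ndufa11 at -1.76, Atp5md at -1.72 and Ndufa3 at -1.68. Ndufa3 read 8.64, 8.63 and 7.38 there, against 9.68, 9.94 and 10.07 in AE9a P3. The P3 rises were Atp5l (1.61), Ndufs5 (1.57), Cox6a2 (1.15), Cox8c (0.65), Atp5j2 (0.60), Atp5g1 (0.55) and Ndufa5 (0.45). The count of 7 changed genes at P2 became 0, 2 and 1 without AE9a P2 replicates 1, 2 and 3 and 0, 1 and 13 without AE9a+miR-126 P2 replicates 1, 2 and 3. The count of 8 at P4 became 1, 2 and 37 without AE9a+miR-126 P4 replicates 1, 2 and 3 and 2 without AE9a P4 replicate 1. At P3 the 50 calls fell to 29 without AE9a+miR-126 P3 replicate 3, the array with the smallest SD.

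Cell type markers moved with added miR-126 as well, on the deposited values. In the mean over passages 5396 of the 22180 genes were lower and 6815 higher than in AE9a. Of the 4436 brightest genes 67.3% were lower (median -0.51), so the marker falls stand beside falls of bright genes in general. Averaged over passages 11 of 12 neutrophil markers were lower than in AE9a (median -2.07) and 9 of 10 monocyte and macrophage markers (median -0.93). At P4 the neutrophil list averaged 6.43 to 6.82 with added miR-126 and 10.84 to 11.32 in AE9a, on low-spread and ordinary arrays alike. Of the general blood cell markers 4 of 5 were lower (median -0.47), and so were 4 of 5 mast cell and basophil markers (median -1.18) and 5 of 10 erythroid markers (median -0.46). T and NK cell markers gave 5 of 8 lower and 1 higher (median -0.69). Stem and progenitor markers went the other way, with 4 of 7 higher and 1 lower (median 0.41). The part of cell type shifts in the subunit differences was not tested.

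The 10 measured mitochondrially encoded subunits, which are transcribed inside the organelle and belong to the same complexes, were read beside the nuclear ones. With added miR-126 9 of 10 were higher and 0 lower than in AE9a over the passages (30.7% of all genes were higher), with a median of 0.35. ND4L was at 0.72 ± 0.11, CYTB at 0.35 ± 0.06 and COX1 at 0.30. Of the 3885 genes at least as bright as the dimmest of these 10, 4.22% were higher and 67.9% lower (median -0.51). That dimmest gene is ND6, with a mean of 7.78, and it did not pass. The 9 that passed have means of 11.48 to 12.62, so the 3885 genes are not matched to them in brightness. With the spread as a covariate 1 of the 10 was higher (median 0.15), and without low-spread arrays 0 were (median 0.069). After cyclic loess 9 were higher (median 0.76), and after quantile normalization 10 (median 0.31). The matching shares of all genes are not given for these settings. In AE9a P1 against normal control 0 passed in limma and the median was 0.11, where the nuclear subunits had -0.45; after cyclic loess these medians were -0.24 and -0.42.

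Loss of miR-126 changed few subunit genes on the deposited values, and more passed in several other settings, given at the end. Averaged over the 4 passages 2 were higher and 2 lower than in AE9a in limma (8.17% of all genes passed), 10 were higher and 3 lower before adjustment (p under 0.05), 58 of 78 differences were above 0 and the median was 0.10. The AE9a arrays are the same as those used for added miR-126, so both effects share them. Uqcr11 was higher by 0.39 ± 0.12 (adjusted p = 0.0333) and Ndufb8 by 0.34 ± 0.10 (adjusted p = 0.0401), and Ndufb11, an accessory subunit of the membrane arm encoded on the X chromosome, was lower by 0.42 ± 0.13 (adjusted p = 0.0461). With the spread as a covariate 15 were higher and 2 lower (median 0.16), and the matching share of all genes is not given. The count of 4 fell to 1 without AE9a P3 replicate 1, AE9a P4 replicate 2, miR-126KO+AE9a P2 replicate 3 or miR-126KO+AE9a P4 replicate 3. It fell to 2 without AE9a P1 replicate 1, P2 replicate 2 or 3, P3 replicate 2 or P4 replicate 3, and likewise without knockout P1 replicate 1 or 3 or P3 replicate 2 or 3. Of the erythroid markers 6 of 10 were higher (median 0.87) and of the neutrophil markers 11 of 12 lower (median -1.60), and their part was not tested.

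Cox6b2 was the steadiest difference of the knockout arm. In AE9a it read 5.84, 5.51 and 5.75 at P1, 5.88, 5.86 and 6.13 at P2, 6.59, 6.04 and 6.14 at P3 and 6.63, 6.23 and 6.29 at P4. In miR-126KO+AE9a it read 5.32, 5.44 and 5.51, then 5.15, 5.46 and 5.28, then 5.29, 5.80 and 5.71, then 5.70, 5.77 and 5.49. At P2, P3 and P4 the arms did not overlap, and at P1 they did. The mean difference was -0.58 ± 0.09 (limma adjusted p = 6.55e-05), it passed with each of the 24 arrays left out in turn, and it lay at -0.57 with spread as a covariate and -0.59 after cyclic loess. With added miR-126 Cox6b2 stood at 5.50 to 6.65 (mean difference 0.05, adjusted p = 0.682).

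At single passages of the knockout arm, Cox6b2 passed at P2 (-0.66, limma adjusted p = 0.0357) and P4 (-0.73, adjusted p = 0.0344), where 3.99% and 1.33% of all genes passed. Cox7a2l, a factor that links complexes III and IV, passed at P2 (-0.86, adjusted p = 0.0216). The 2 calls at P2 became 0 without AE9a P2 replicate 1 or 3 or knockout P2 replicate 3, and 1 without replicate 2 of either arm. At P3 0 passed (1.05% of all genes), with 1 higher and 1 lower before adjustment (p under 0.05). The P4 call rests on every array, since 0 calls were left with any of the 6 omitted.

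Between P1 and P4 of the AE9a arm Cox6b2 was the single call, higher by 0.68 ± 0.18 (limma adjusted p = 0.0341, 2.94% of all genes passed). Of the 78 differences 63 were above 0, the median of all 78 was 0.29, against -0.05 over all genes, and 18 genes had every P4 array above every P1 array (13.2% of all genes did). No call was left with any of the 6 arrays omitted. In the knockout arm 0 passed (4.04% of all genes), with 1 higher before adjustment (p under 0.05) and a median of -0.03. With added miR-126 3 were higher, Atp5l (1.13), Cox6a2 (0.91) and Cox6b2 (0.73), and 4 lower, Sdhb (-0.86), Atp5h (-0.80), Atp5md (-0.80) and Sdhd (-0.73), where 24.3% of all genes passed. This count of 7 became 2, 2 and 34 without AE9a+miR-126 P4 replicates 1, 2 and 3, and 3, 3 and 2 without the P1 replicates 1, 2 and 3. Without the low-spread arrays AE9a+miR-126 P4 is replicate 3 alone, with the spread taken from the other groups. In that fit Cox6a2 (1.13) and Cox6b2 (1.00) passed and the other 5 did not.

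The test of whether the miR-126 effect itself changed from P1 to P4 gave 2 higher and 3 lower subunit genes for added miR-126 (10.5% of all genes passed) and 0 for the knockout (0.428% of all genes), where 0 were higher and 2 lower before adjustment (p under 0.05). The medians were -0.53 and -0.21. Cox6a2 had the smallest p: its effect went from -0.08 at P1 to 1.09 at P4, a change of 1.18 ± 0.26 (limma adjusted p = 0.00561). It was 1.40 without low-spread arrays (adjusted p = 0.000874), where AE9a+miR-126 P4 is replicate 3 alone and the other groups supply the spread. The count of 5 for added miR-126 rose to 38 without AE9a+miR-126 P4 replicate 3, became 3 without AE9a P4 replicate 2 and 4 without AE9a P1 replicate 3, and fell to 1 without any of the other 9 arrays.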

How the data were processed

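Total RNA was measured on 39 Affymetrix mouse gene arrays. The authors deposited log2 expression values, made with RMA and Partek 6.0 per the submitters' processing notes; filters, batch steps, background setting and genome build were not given in the sources used here. RMA brings arrays to 1 intensity distribution before probe sets are summarised, and the deposited arrays nevertheless differed in spread. Symbols came from the platform annotation: of 27037 probe sets 23521 had 1 symbol, 1814 several and 1702 none. Taking the brightest probe set per gene gave 22180 genes.

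A single model of 13 group means was fitted to the 39 arrays in limma 3.58.1 (R 4.3.3, 26 residual degrees of freedom), with Benjamini-Hochberg adjustment over all genes in each of 18 comparisons. The threshold was an adjusted p of 0.05, and ± after a difference is the model's SE. The median SE of the subunit genes was 0.265 for 3 mice against 3, 0.133 for means over passages and 0.375 for changes of an effect. The number of arrays limits the precision. Groups came from the array titles. Correlations within groups ran from 0.893 to 0.993, and 0 pairs of arrays were identical. The code was tested on simulated data.

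Named genes were up to 5 rises and 5 falls per comparison among those that passed, plus the Sdh genes, the paired Cox isoforms, core subunits and Ndufa4. Gene lists covered assembly factors, electron carriers, the citric acid cycle, glycolysis, mitochondrial ribosome, regulators, mitochondrially encoded subunits and blood cell markers. Members and lists were chosen with earlier results of these data known. Alternatives were a replicate block, a fit on the compared groups only, a filter on dim genes (log2 of 5 in at least 1 group), array spread as a covariate, leaving out arrays with an SD under 1.8, cyclic loess, quantile normalization, a trended and robust prior and leaving out each array.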

Additional observations from a re-analysis of the deposited data

Results flagged for a closer look

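For 5 subunit genes (6.41% of the 78) the effect of added miR-126 differed between P1 and P4 in limma's test of the change itself. This test compares AE9a+miR-126 minus AE9a at P4 with the same difference at P1, and 10.5% of all genes passed it. The change was 1.18 ± 0.26 for Cox6a2 (adjusted p = 0.00561), where the arms overlapped at P1 and all 3 arrays with added miR-126 were higher at P4. It was 1.49 ± 0.48 for Atp5l (adjusted p = 0.0438), -1.81 ± 0.58 for Ndufb9 (adjusted p = 0.044), -1.32 ± 0.42 for Sdhb (adjusted p = 0.0436) and -1.31 ± 0.43 for Ndufa11 (adjusted p = 0.0469). For these 4, AE9a+miR-126 P4 replicate 3 lay within the range of AE9a P4 and replicates 1 and 2, of low spread, lay apart. Without the arrays of low spread AE9a+miR-126 P4 is replicate 3 alone, assumed to vary like the other groups. The changes were then 0.25 for Atp5l, -0.21 for Ndufb9, -0.32 for Sdhb and -0.55 for Ndufa11, none of which passed, and 1.40 for Cox6a2, which did.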

How the results depend on the processing

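Counts of changed subunit genes moved with the array spread and with single arrays. The matching shares of all genes are not given for any setting or omitted array in this section. The counts therefore do not show whether the subunit genes differed from genes in general. Without the arrays of low spread they were 30, 14 and 9 at P1 against normal control for AE9a, added miR-126 and the knockout, 2 for the mean effect of added miR-126 and 8 for that of the knockout. At single passages they were 0 at P2 and 2 at P4 with added miR-126, and 3, 1 and 2 at P1, P2 and P3 in the knockout arm. From P1 to P4 they were 3 in AE9a and 4 with added miR-126, and 1 for the change of its effect; P3 with added miR-126 could not be fitted, since all 3 arrays were left out, and its P2 and P4 kept only replicate 3, assumed to vary like the other groups. With spread as a covariate they were 14 and 8 for the miR-126 arms against normal control, 6 and 17 for the mean effects, 0, 4 and 3 at P2, P3 and P4 with added miR-126, 2 at P3 of the knockout arm, 4 for P4 minus P1 with added miR-126 and 1 for the change of its effect.

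Cyclic loess gave 13 and 8 for the miR-126 arms against normal control, 13 for the mean knockout effect, 1 and 20 at P2 and P3 with added miR-126, 2, 4 and 1 at P1, P2 and P3 of the knockout arm, 14 for P4 minus P1 with added miR-126 but 1 for the knockout, and 1 for the change of the added miR-126 effect. Quantile normalization gave 27 and 8 for the mean effects of added miR-126 and of the knockout, 1 at P2 with added miR-126, 0, 1, 1 and 0 at P1 to P4 of the knockout arm, 0 for P4 minus P1 in AE9a and 1 for the change of the added miR-126 effect. The fit on the compared groups only gave 11 for AE9a+miR-126 P1 against normal control, 9 for the mean knockout effect, 31 and 1 at P3 and P4 with added miR-126, 2, 0 and 0 at P1, P2 and P4 of the knockout arm, 3 and 0 for P4 minus P1 in AE9a and with added miR-126, and 1 for the change of the added miR-126 effect. Without passage 3, chosen after seeing the data, the mean effect of added miR-126 had 10. The cause of these shifts was not tested.

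Signs turned for named genes in the mean effect of added miR-126, and not all of them are listed. Ndufa4 and Uqcrfs1, which passed in neither fit, turned to 0.035 and 0.098 with spread as a covariate. With spread as a covariate the values were Ndufs8 0.022, Sdhc 0.00107, Sdhd 0.13, Cox6a1 0.13, Cox6b1 0.050, Cox7a2 0.030, Ndufs1 0.27, Uqcrc1 0.041, Cox5a 0.22 and Cox5b 0.12. Without low-spread arrays they were Sdhc 0.073, Sdhd 0.011, Cox6a1 0.15, Cox6b1 0.023, Cox7a2 0.14, Ndufs1 0.21, Ndufv1 0.069, Uqcrc1 0.093, Cox5a 0.18 and Cox5b 0.10, at P4 Ndufb9 0.083, Sdhb 0.00666 and Atp5md 0.14, and for P4 minus P1 Atp5l -0.11, Sdhb 0.14, Atp5h 0.0055, Atp5md 0.24 and Sdhd 0.014. After cyclic loess Sdhd was 0.10, Cox6a1 0.14, Cox8a 0.34, Cox8b -0.00639 and Atp5b 0.35, and after quantile normalization Sdhd was 0.014.

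Leaving out each array gave 5 to 11 changed genes for AE9a P1 against normal control, 2 to 4 for AE9a+miR-126 and 3 to 4 for the knockout arm, and 32 to 52 and 1 to 4 for the mean effects of added miR-126 and of the knockout. With added miR-126 it gave 0 to 13, 29 to 56 and 1 to 37 at P2, P3 and P4, and 0 at P1. In the knockout arm it gave 0 to 1 at P1, 0 to 2 at P2 and 0 at P3 and P4. For P4 minus P1 it gave 0 in AE9a and in the knockout arm and 2 to 34 with added miR-126. The change of the added miR-126 effect had 1 to 38 and that of the knockout 0.

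Correlations of same-numbered arrays ran from -0.342 to 0.304 over 14 comparisons, and in 1 of them (knockout against AE9a at P2) every pair was above 0.1; in the others the numbers did not pair the arrays. The replicate block left 2 calls at P2 of the knockout arm. It changed the count to 0 at P4 of the knockout arm and to 2 for the change of the added miR-126 effect.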
